A study of Mus musculus with 15 samples.

Results

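Fatty acid synthesis and lipid storage were followed through 10 genes in RAW264.7, a macrophage-like cell line of the mouse, after exposure to the peptide LCCL. The genes were taken for their function (Srebf1, Acaca, Fasn, Elovl6, Scd1, Scd2, Dgat1, Dgat2, Plin2 and Lpl), and each was found by its symbol among the 25639 symbols of the count table. Earlier results of these data were known when they were chosen, so the counts and medians of the set are descriptive. All 10 were among the 12401 genes with enough counts to be tested. By its title, the series concerns a peptide with an LCCL core motif as a candidate drug acting on the differentiation of M1 (classically activated) macrophages. RNA of wild-type cells was sequenced in 15 libraries that formed 5 groups of 3. Cells were either left untreated or given LCCL at 1 µg or 10 µg, each for 6 h or for 24 h. No volume accompanies the doses, 1 batch is named for all libraries, no vehicle group is listed and the time at which untreated cells were harvested is not stated. An effect of LCCL and an effect of time in culture therefore cannot be told apart in the comparisons with untreated cells or between times. The comparisons between doses are matched for time.

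Fatty acids are built in the cytosol from acetyl-CoA, which acetyl-CoA carboxylase (Acaca) converts to malonyl-CoA and fatty acid synthase (Fasn) assembles into palmitate. Elovl6 lengthens palmitate to stearate, and the stearoyl-CoA desaturases Scd1 and Scd2 place a double bond to give palmitoleate and oleate. Dgat1 and Dgat2 complete triglycerides, Plin2 coats the lipid droplets in which macrophages store them, and lipoprotein lipase (Lpl) releases fatty acids from circulating lipoproteins. Srebf1 encodes SREBP-1, a transcription factor of this pathway that is itself a target of the liver X receptors (LXR).

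RefSeq promoter sequences were at hand for 5 of the 10 genes, as 7 start sites (build GRCm38.p6): Fasn, Acaca, Elovl6 and Plin2 with 1 each and Srebf1 with 3. The 250 bases before the start site are shown 5′ to 3′ for Fasn and Elovl6, whose levels were lower after 24 h, and for Plin2, whose level was higher. They lie at chr11:120824548-120824797 on the minus strand, chr3:129532136-129532385 on the plus strand and chr4:86670060-86670309 on the minus strand. Capitals mark CCAAT, the box bound by NF-Y, on either strand.
Fasn: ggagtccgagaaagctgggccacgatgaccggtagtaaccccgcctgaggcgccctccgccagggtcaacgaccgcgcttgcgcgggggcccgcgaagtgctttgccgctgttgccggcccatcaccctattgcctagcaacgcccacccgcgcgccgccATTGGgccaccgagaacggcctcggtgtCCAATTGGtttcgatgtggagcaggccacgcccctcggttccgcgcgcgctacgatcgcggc
Elovl6: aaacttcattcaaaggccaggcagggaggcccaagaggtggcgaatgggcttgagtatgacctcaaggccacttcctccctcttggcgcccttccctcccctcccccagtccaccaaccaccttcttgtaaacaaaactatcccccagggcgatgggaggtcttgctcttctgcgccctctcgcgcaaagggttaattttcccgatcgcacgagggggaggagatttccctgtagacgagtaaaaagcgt
Plin2: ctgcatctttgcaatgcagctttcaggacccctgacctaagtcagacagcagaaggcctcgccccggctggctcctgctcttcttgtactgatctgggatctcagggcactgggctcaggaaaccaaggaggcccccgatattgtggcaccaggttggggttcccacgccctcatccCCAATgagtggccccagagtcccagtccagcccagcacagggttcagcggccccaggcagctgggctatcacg

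The Fasn window held 3 CCAAT boxes, 85, 57 and 54 bases before the start, of which the last pair overlap on opposite strands. The Plin2 window held 1, 68 bases before the start, and the Elovl6 window held none. Among the Srebf1 windows CCAAT occurred once in the first, 161 bases before the start, and once in the third, 25 bases before it. The Acaca window, from the only start site at hand for that gene, held none of the motifs searched. That absence does not extend to any other start site of Acaca. The other motifs, on both strands, were the sterol response element TCACNCCAC and the E-box CACGTG, with 0 matches in the 7 windows, and the Sp1 box GGGCGG, with 2 matches in the second and 2 in the third Srebf1 window. Of 32851 promoter windows of this length, 33.8% held CCAAT, 32.7% GGGCGG, 6.02% CACGTG and 1.05% TCACNCCAC. A match describes these letters only.

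Library totals ran from 19085148 to 22434642 counts. Levels are CPM, counts scaled to a common library total, on library sizes adjusted by the trimmed mean of M-values (TMM), given as mean ± SD with n = 3 libraries. Changes are log2 fold changes ± SE from edgeR's quasi-likelihood test with Benjamini-Hochberg adjustment over all 12401 genes, and "rose" and "fell" are used at an adjusted p under 0.05. These p-values measure the spread between libraries, which may be technical, because the labels do not say that the libraries came from separate cultures. In bulk RNA, fewer cells of a kind and less RNA per cell cannot be told apart. Of 10 macrophage markers, Mertk was near 0 (20 counts over all libraries) and the other 9 were expressed. Their summed level ran from 14930 to 15550 CPM in untreated cells, from 13650 to 16160 CPM after 1 µg for 24 h and from 11290 to 12380 CPM after 10 µg for 24 h. Lyz2 made the largest part of that sum, at a mean of 9936 CPM in untreated cells and 7573 after 10 µg for 24 h. The markers did not move together. Mean levels of Cd14 (2036 to 1093 CPM), Csf1r (1439 to 840.8) and Spi1 (341.1 to 309) were also lower after 10 µg for 24 h. Those of Cd68 (990.2 to 1180), Adgre1 (41.26 to 61.66), Itgam (202 to 261), Ptprc (255.1 to 388.7) and Fcgr1 (13.13 to 30.06) were higher. The part of these markers in the results was not tested. The summed level of 6 adipocyte markers did not exceed 0.150 CPM in any library, with Lep at 0. Within the 1 µg 24 h group replicate 1 stood apart, with a dispersion between replicates (chi-square per degree of freedom) of 13.5 and 15.2 against the other replicates, which differed from each other by 5.71. On the first principal component of log2 CPM, with 83.1% of the variance, replicates 1, 2 and 3 lay at 18.0, 19.4 and 25.8. By that measure replicate 3 stood apart, so the choice of deviant library depends on the measure. Calls of the 10 genes that rest on that group are given without single libraries where they change.

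After 24 h the genes of the pathway split, with Fasn and Elovl6 lower and Scd1, Scd2, Plin2 and Dgat1 higher than in untreated cells at both doses. At 1 µg 5 of the 10 genes rose and 2 fell, where 30.8% of all genes tested rose and 31.0% fell (61.8% passed). At 10 µg 5 rose and 4 fell, where 35.4% of all genes rose and 34.9% fell (70.3% passed), so with 10 genes the counts of 7 and 9 lay near the background. The median log2 fold change of the 10 genes was 0.273 at 1 µg and 0.355 at 10 µg, against 0.0101 and 0.00948 over all tested genes. At 10 µg that median falls in the gap between Srebf1 (0.09) and Dgat1 (0.62), so it does not describe a shift shared by the 10 genes. After 6 h Lpl fell at 10 µg, as 1 of 10 where 5.95% of all genes passed, 4.09% higher and 1.86% lower. At 1 µg and 6 h edgeR called 0 of the 10 and 0 of all 12401 genes. At that dose and time 337 genes had an unadjusted p under 0.05, DESeq2 and limma-voom also called 0, and 1 gene outside the set passed without a filter on low counts. The 4 comparisons with untreated cells share the same 3 control libraries. Libraries of the 1 µg 24 h group all lay above or all below the untreated ones for 64.7% of tested genes. At 10 µg and 24 h this held for 72.2%, and between the doses at 24 h for 41.2%. Between 24 h and 6 h it held for 65.5% at 1 µg and 72.1% at 10 µg. Statements below that 24 h libraries were separate are to be read against these shares.

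**Figure D1:**
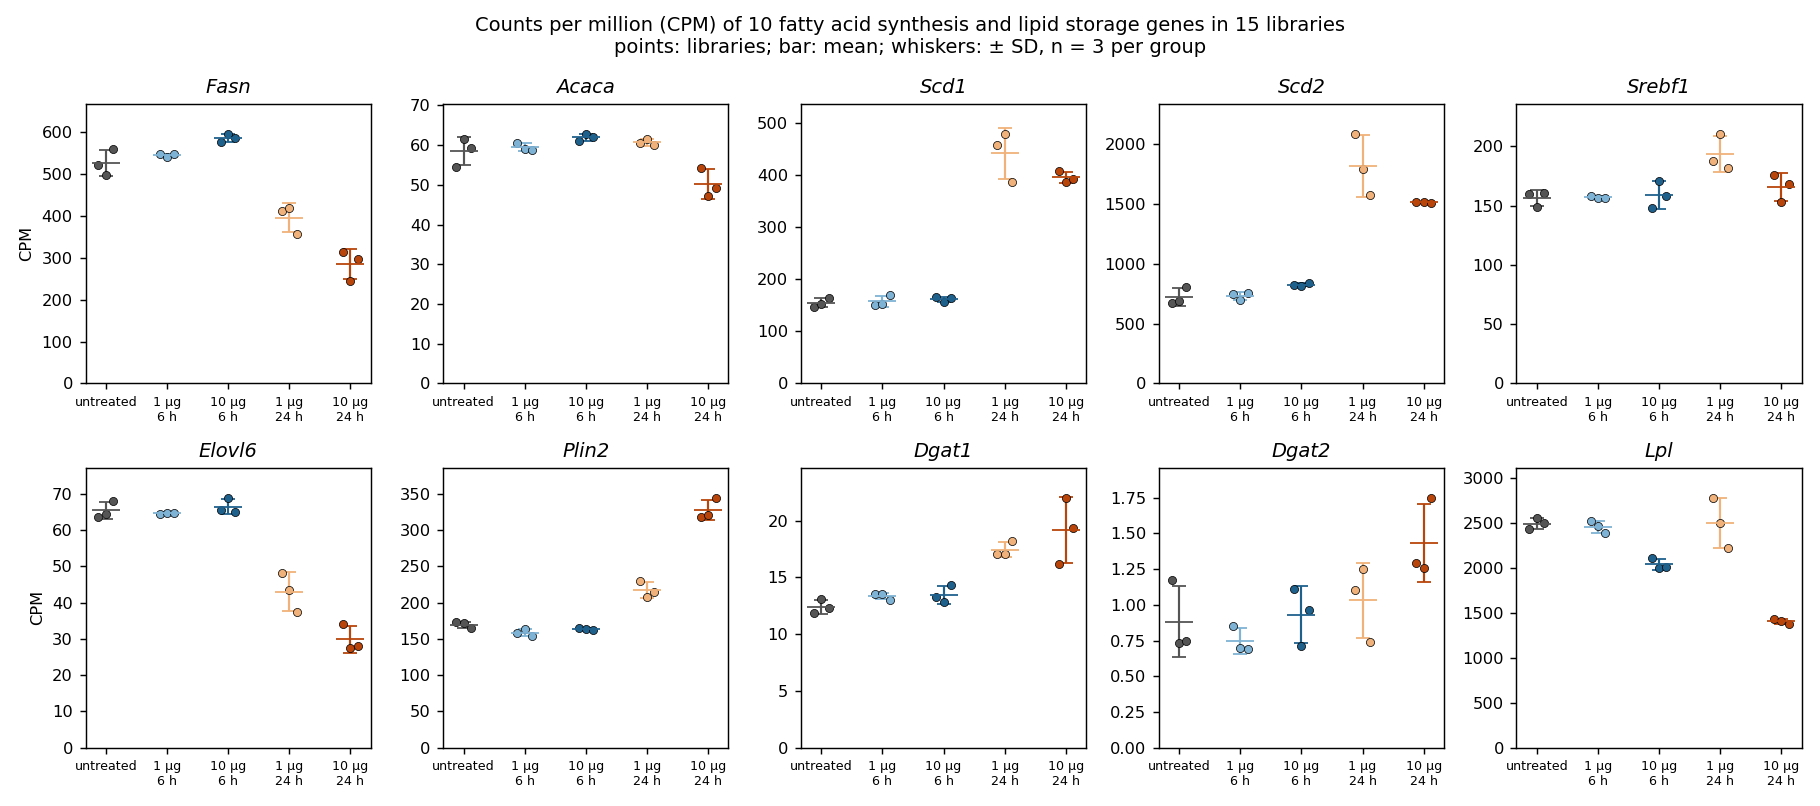
Level of each of the 10 genes in all 15 libraries, with CPM on a linear axis that starts at 0 and differs between panels, and the 5 groups along the horizontal axis. Points are libraries, bars are means and whiskers are ± SD with 3 libraries per group. The 24 h groups of Scd1 and Scd2 lie above every other group, those of Elovl6 and Fasn lie below, and Plin2 is highest at 10 µg and 24 h.

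The regulator gene Srebf1 changed little and rose only at the lower dose. Its level was 160, 148 and 161 CPM in the untreated libraries, 158, 156 and 156 after 1 µg for 6 h, and 148, 171 and 158 after 10 µg for 6 h. It was 188, 211 and 182 CPM after 1 µg for 24 h and 176, 153 and 169 after 10 µg for 24 h. The 1 µg 24 h libraries lay above all untreated libraries, and the 10 µg 24 h libraries overlapped both the untreated and the 6 h libraries. Srebf1 rose by 0.31 ± 0.06 at 1 µg and 24 h (1.24-fold, edgeR adjusted p = 0.000107). At 10 µg and 24 h its change was 0.09 ± 0.06 (adjusted p = 0.216), which passed with upper quartile scaling (0.00519, range over alternatives 0.00519 to 0.55). Between the doses at 24 h Srebf1 was lower at 10 µg (-0.22 ± 0.06, adjusted p = 0.00532), except without 1 µg 24 h replicate 2 (0.0546, range over alternatives 0.00123 to 0.0546). The exons of Srebf1 overlap those of Rai1 on the other strand and hold Mir6922 on the same strand. Rai1 itself changed by -0.12 ± 0.06 at 1 µg and by -0.22 ± 0.07 at 10 µg for 24 h (adjusted p = 0.111 and 0.00378). The library kit marks strand, but the strand setting of the counting is not given in the sources used here.

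Acaca, whose enzyme commits acetyl-CoA to fatty acid synthesis, fell only at 10 µg and 24 h. It stood at 54.6, 61.5 and 59.2 CPM in untreated cells, at 60.6, 59.0 and 58.8 after 1 µg for 6 h, and at 61.1, 62.9 and 62.0 after 10 µg for 6 h. The 24 h values were 60.4, 61.6 and 60.1 CPM at 1 µg and 54.3, 47.1 and 49.2 CPM at 10 µg. The 10 µg 24 h libraries were the lowest, the highest of them just under the lowest untreated library. The fall against untreated cells was -0.22 ± 0.06 (0.859-fold, adjusted p = 0.00144). With upper quartile scaling it was -0.104 and did not pass (adjusted p = 0.108, range over alternatives 0.000186 to 0.108). Against 1 µg at the same time Acaca was lower by -0.27 ± 0.06 (adjusted p = 0.000418). At 1 µg and 24 h the change from untreated was 0.06 ± 0.06 (adjusted p = 0.406), and it passed with upper quartile scaling alone (0.0352, range over alternatives 0.0352 to 0.901). Of the 50-base stretches of Acaca transcripts 30.4% also occur in other genes, mainly Gm5182, so its counts are less certain than those of Fasn, which shares none.

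Fasn, the gene of the synthase that makes palmitate, fell after 24 h at both doses, and more at 10 µg. Its level was 522, 499 and 559 CPM in untreated cells, 548, 541 and 548 after 1 µg for 6 h and 578, 597 and 586 after 10 µg for 6 h. At 24 h the level was 413, 420 and 357 CPM at 1 µg and 314, 245 and 297 CPM at 10 µg. The 3 groups of untreated and 6 h libraries lay above both 24 h groups, which did not overlap with each other. Mean levels were 527 ± 30.5 CPM in untreated cells, 396 ± 34.7 after 1 µg and 285 ± 36.3 after 10 µg for 24 h. Fasn fell to 0.753 of the untreated level at 1 µg (-0.41 ± 0.07, adjusted p = 7.81e-05) and to 0.542 at 10 µg (-0.88 ± 0.07, adjusted p = 1.85e-09). The difference between the doses at 24 h was -0.48 ± 0.07 (adjusted p = 4.23e-05). After 6 h at 10 µg all 3 Fasn libraries lay above all untreated libraries, as they did in one direction or the other for 27.3% of tested genes. That difference of 0.16 ± 0.07 did not pass (adjusted p = 0.258), though it did when only these groups were fitted (0.00473, range over alternatives 0.00473 to 0.519).

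Elovl6, the elongase that acts on the product of Fasn, had the largest fall of the 10 genes. It stood at 63.6, 64.5 and 68.2 CPM in untreated cells, at 64.5, 64.7 and 64.9 after 1 µg for 6 h and at 65.7, 68.9 and 65.0 after 10 µg for 6 h. In the 24 h groups Elovl6 stood at 48.1, 43.5 and 37.5 CPM at 1 µg and at 34.1, 27.4 and 28.2 CPM at 10 µg. The 24 h groups lay below every untreated and 6 h library and apart from each other. Of all tested genes 64.7% were separate from untreated cells at 1 µg and 72.2% at 10 µg, and 41.2% were separate between the doses. Elovl6 fell to 0.659 of the untreated level at 1 µg (-0.60 ± 0.07, adjusted p = 2.7e-07) and to 0.457 at 10 µg (-1.13 ± 0.08, adjusted p = 5.88e-12). Between the doses at 24 h the difference was -0.53 ± 0.08 (adjusted p = 1.26e-05). Its exons overlap the antisense gene Gm35986.

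Scd1 and Scd2, the desaturase genes, rose most. Scd1 was at 148, 153 and 164 CPM in untreated cells, at 151, 153 and 169 after 1 µg for 6 h and at 165, 156 and 164 after 10 µg for 6 h. After 24 h it was at 459, 480 and 387 CPM at 1 µg and at 408, 387 and 392 CPM at 10 µg. All 24 h libraries were above all others, and the doses overlapped. Scd1 rose 2.85-fold at 1 µg (1.51 ± 0.07, adjusted p = 1.09e-14) and 2.55-fold at 10 µg (1.35 ± 0.07, adjusted p = 1.55e-14). The dose difference at 24 h was -0.16 ± 0.06 and did not pass (adjusted p = 0.0538). It passed with DESeq2 (0.0412), with the relative log expression scaling (RLE) of edgeR (0.0458), without a filter on low counts (0.035) and without 1 µg 24 h replicate 3 (0.000813), with a range over alternatives of 0.000813 to 0.276.

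Scd2 rose at both doses after 24 h as well. It was at 668, 685 and 804 CPM in untreated cells, at 746, 693 and 757 after 1 µg for 6 h and at 823, 811 and 841 after 10 µg for 6 h. By 24 h Scd2 was at 2087, 1788 and 1571 CPM at 1 µg and at 1518, 1513 and 1503 CPM at 10 µg. The spread was wide at 1 µg (1815 ± 259 CPM) and narrow at 10 µg (1511 ± 7.80 CPM), and the lowest 1 µg library lay just above the highest 10 µg library. Scd2 rose 2.53-fold at 1 µg (1.34 ± 0.08, adjusted p = 1.47e-10) and 2.10-fold at 10 µg (1.07 ± 0.08, adjusted p = 1.25e-09). At 24 h it was lower at 10 µg than at 1 µg by -0.26 ± 0.08 (adjusted p = 0.0159). That call ended without 1 µg 24 h replicate 1 (adjusted p = 0.0745), without 10 µg 24 h replicate 3 (0.0507) and when only these groups were fitted (0.0524), with a range over alternatives of 0.000197 to 0.0745. At 10 µg and 6 h the change from untreated was 0.20 ± 0.08 (adjusted p = 0.19), with all 3 libraries above the untreated ones. It passed without untreated replicate 3 alone (0.285, adjusted p = 0.045, range over alternatives 0.045 to 0.466). Scd1 and Scd2 share 4.56% and 3.97% of their 50-base stretches with other genes, most of these with each other, Scd3 and Scd4. Scd3 and Scd4 had 33 and 337 counts over all 15 libraries.

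The balance of desaturase to synthase transcripts moved accordingly. Scd1 had 0.283 to 0.307 counts per Fasn count in untreated libraries and 0.262 to 0.309 in the 6 h libraries. After 24 h this ratio was 1.08 to 1.14 at 1 µg and 1.30 to 1.58 at 10 µg, with no overlap between the doses. Scd2 had 1.28 to 1.44 counts per Fasn count in untreated and 6 h libraries, 4.26 to 5.06 after 1 µg and 4.83 to 6.18 after 10 µg for 24 h. Scd1 counts per Scd2 count were 0.193 to 0.224 in untreated and 6 h libraries, 0.220 to 0.268 after 1 µg for 24 h and 0.256 to 0.269 after 10 µg for 24 h, so the 10 µg 24 h libraries lay above all untreated and 6 h libraries. These ratios describe the libraries and carry no length correction.

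Dgat1, an enzyme of the last step of triglyceride synthesis, rose at both doses after 24 h. It was at 11.9, 13.1 and 12.3 CPM in untreated cells, at 13.5, 13.6 and 13.01 after 1 µg for 6 h and at 13.3, 12.8 and 14.3 after 10 µg for 6 h. The 24 h groups gave 17.1, 17.1 and 18.2 CPM at 1 µg and 16.1, 21.99 and 19.3 CPM at 10 µg. The 24 h libraries were above all others and the doses overlapped, with a wider spread at 10 µg. Dgat1 rose 1.40-fold at 1 µg (0.49 ± 0.10, adjusted p = 0.000105) and 1.54-fold at 10 µg (0.62 ± 0.10, adjusted p = 2.83e-06). Between the doses the difference of 0.13 ± 0.09 did not pass (adjusted p = 0.284). Without 10 µg 24 h replicate 1, the lowest of its group, it was 0.24 and passed (0.0409, range over alternatives 0.0409 to 0.913).

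Dgat2, the other enzyme of that step, was barely expressed, so that its precision was limited by counting. Its counts were 24, 16 and 15 in untreated libraries, 16, 14 and 13 after 1 µg for 6 h, 24, 14 and 20 after 10 µg for 6 h, 25, 29 and 15 after 1 µg for 24 h and 27, 25 and 36 after 10 µg for 24 h. In CPM the means were 0.882 ± 0.250 in untreated cells and 1.43 ± 0.272 at 10 µg and 24 h, where all 3 libraries lay above the untreated ones. Libraries were separate in that comparison, in one direction or the other, for 72.2% of tested genes. The rise was 0.70 ± 0.30 (1.63-fold, adjusted p = 0.041). It did not pass with DESeq2 (0.105), without a filter on low counts (0.0818), without untreated replicates 2 and 3 (0.138 and 0.127) or without 10 µg 24 h replicate 3 (0.171), with a range over alternatives of 0.0179 to 0.171. In the other comparisons with untreated cells the groups overlapped and Dgat2 did not pass.

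Plin2, which encodes the main lipid droplet coat protein of macrophages, rose after 24 h and did so more at 10 µg. It was at 173, 172 and 165 CPM in untreated cells, at 158, 164 and 154 after 1 µg for 6 h and at 165, 164 and 162 after 10 µg for 6 h. After 24 h it was at 229, 208 and 214 CPM at 1 µg and at 319, 322 and 344 CPM at 10 µg. Both 24 h groups lay above all other libraries and apart from each other. After 1 µg for 6 h all 3 libraries lay under the untreated ones, a difference of -0.10 ± 0.05 that did not pass (adjusted p = 1). Libraries were separate in this comparison, in one direction or the other, for 10.9% of tested genes. Plin2 rose 1.28-fold at 1 µg (0.36 ± 0.05, adjusted p = 5.26e-07) and 1.93-fold at 10 µg (0.95 ± 0.05, adjusted p = 4.25e-15). Between the doses at 24 h it was 1.51-fold higher at 10 µg (0.59 ± 0.05, adjusted p = 4.76e-10).

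Lpl, the secreted lipase, was the gene of the set that fell at 10 µg at both times. It was at 2426, 2546 and 2494 CPM in untreated cells, at 2512, 2461 and 2382 after 1 µg for 6 h and at 2103, 2001 and 2005 after 10 µg for 6 h. After 24 h it was at 2772, 2496 and 2212 CPM at 1 µg and at 1432, 1403 and 1379 CPM at 10 µg. Both 10 µg groups lay below all untreated and 1 µg libraries, whereas the 1 µg 24 h libraries spread on both sides of the untreated ones. Lpl fell to 0.818 of the untreated level after 6 h at 10 µg (-0.29 ± 0.06, adjusted p = 0.00308) and to 0.565 after 24 h (-0.82 ± 0.06, adjusted p = 4.62e-12). Both calls held in every alternative tried. At 1 µg and 24 h the change was 0.00 ± 0.06 (adjusted p = 0.97).

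**Figure D2:**
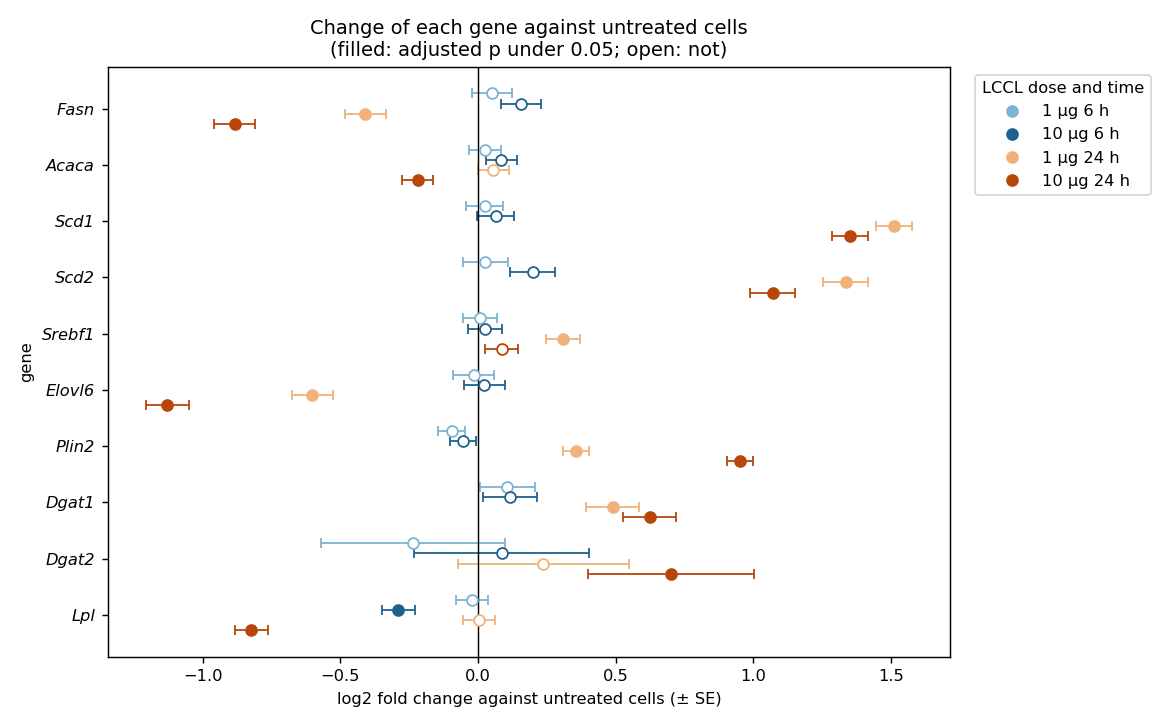
Log2 fold change against untreated cells for each of the 10 genes, with ± SE as whiskers and 1 point for each dose and time. Filled points had an adjusted p under 0.05; of the 6 h points only Lpl at 10 µg is filled, whereas at 24 h Scd1 and Scd2 lie farthest to the right and Elovl6 farthest to the left.

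The comparison of 10 µg with 1 µg at the same time separated dose from time in culture. At 24 h 6 of the 10 genes were lower at 10 µg (Lpl, Elovl6, Fasn, Acaca, Scd2 and Srebf1) and Plin2 was higher, where 35.3% of all genes passed, 19.3% lower and 16.0% higher. With upper quartile scaling the balance over all genes turned, with 2356 higher and 2033 lower, and the counts of 6 lower and 1 higher among the 10 genes were the same. The 10 genes had a median dose difference of -0.244 on the log2 scale, against -0.00963 over all tested genes. Lpl differed most, at 0.563 of its 1 µg level (-0.83 ± 0.06, adjusted p = 9.93e-11). Without single libraries of these groups 6 to 8 of the 10 genes passed. The count was 6 without 1 µg 24 h replicate 1 or 10 µg 24 h replicate 3, where Scd2 did not pass. It was also 6 without 1 µg 24 h replicate 2, where Srebf1 did not pass.

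At 6 h Lpl was the member of the set that differed between the doses, where 2.35% of all genes passed, 1.85% higher and 0.492% lower. It was at 0.831 of its 1 µg level (-0.27 ± 0.06, adjusted p = 0.0127), and every 10 µg library lay below every 1 µg library. The call ended without 1 µg 6 h replicate 1 (adjusted p = 0.0892) or 2 (0.0641) and without 10 µg 6 h replicate 2 (0.0777) or 3 (0.0796), with a range over alternatives of 1.18e-07 to 0.0892. Fasn, Acaca, Scd2 and Elovl6 had all 3 of their 10 µg libraries above the 1 µg ones, with differences from 0.04 to 0.17, and did not pass. Groups were separate in this way, in one direction or the other, for 24.1% of tested genes. When only these groups were fitted Fasn (0.0122, range over alternatives 0.0122 to 0.816) and Scd2 (0.000326, range over alternatives 0.000326 to 0.685) passed.

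**Figure D3:**
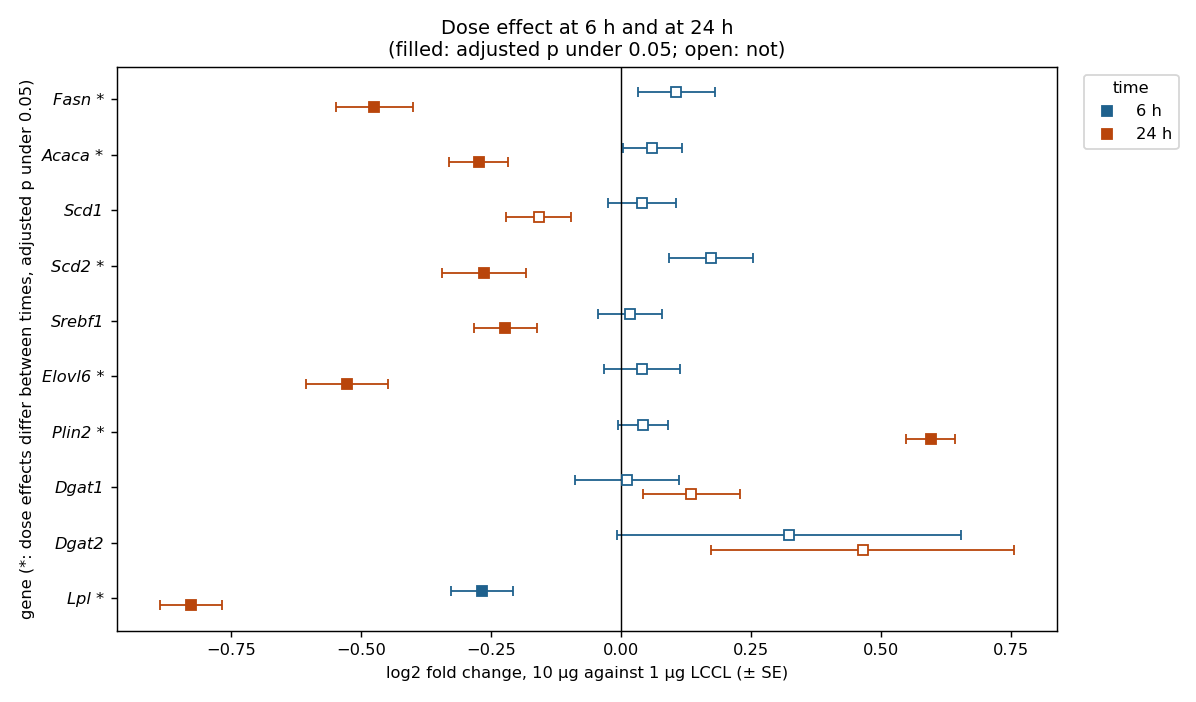
Log2 fold change of 10 µg against 1 µg LCCL at 6 h and at 24 h for each of the 10 genes, with ± SE as whiskers, filled where the adjusted p was under 0.05 and with an asterisk where the dose effects differed between the times. Lpl is lower at 10 µg at both times, Plin2 is higher at 24 h, and Fasn, Elovl6, Acaca and Scd2 are lower at 24 h after small positive values at 6 h that did not pass.

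The dose effect at 24 h differed from that at 6 h for 6 of the 10 genes, 5 more negative and 1 more positive, where 18.6% of all genes passed, 11.0% and 7.58% in these directions. The difference was -0.58 ± 0.10 for Fasn (adjusted p = 0.000625), -0.57 ± 0.11 for Elovl6 (0.000692) and -0.56 ± 0.08 for Lpl (4.62e-05). It was -0.33 ± 0.08 for Acaca (0.00419), -0.44 ± 0.11 for Scd2 (0.012) and 0.55 ± 0.07 for Plin2 (3.7e-06). For Scd1 it was -0.20 ± 0.09 (0.143), which passed without 1 µg 24 h replicate 3 (0.00678, range over alternatives 0.00678 to 0.332). Srebf1 gave -0.24 ± 0.09 (0.053). That value passed without a filter on low counts (0.0291), without 1 µg 24 h replicate 1 (0.0452) or 3 (0.0188), without 10 µg 6 h replicate 1 (0.0245) and without 10 µg 24 h replicate 1 (0.0206), with a range over alternatives of 0.0188 to 0.17. Dgat1 and Dgat2 gave 0.12 ± 0.14 and 0.14 ± 0.44 and did not pass.

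Between 24 h and 6 h at the same dose, 5 of the 10 genes were higher and 2 lower at 1 µg, where 60.7% of all genes passed, 30.3% higher and 30.5% lower. At 10 µg 4 were higher and 4 lower, where 69.2% passed, 34.0% higher and 35.2% lower. Scd1 was higher at 24 h by 1.49 ± 0.07 at 1 µg and by 1.29 ± 0.07 at 10 µg (adjusted p = 1.41e-14 and 4.29e-14), and Plin2 by 0.45 ± 0.05 and 1.01 ± 0.05 (1.26e-08 and 1.96e-15). Fasn was lower by -0.46 ± 0.07 and -1.04 ± 0.07 (2.18e-05 and 1.72e-10). Acaca and Lpl were lower with time at 10 µg, by -0.30 ± 0.06 and -0.54 ± 0.06 (4.03e-05 and 1.43e-08), and at 1 µg their differences were 0.03 ± 0.06 and 0.02 ± 0.06 (0.661 and 0.737). Srebf1 was higher with time at 1 µg (0.30 ± 0.06, adjusted p = 0.000147). In these comparisons length of exposure and time in culture cannot be told apart.

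Per length of merged exons (GENCODE M21 on GRCm38), Lpl was the most abundant of the 10 transcripts in untreated cells, at 238 ± 5.71 CPM per kb. Scd2 followed at 132 ± 13.6, then Plin2 at 48.4 ± 1.21 and Fasn at 48.1 ± 2.79, which differed by less than their SD. Scd1 was at 31.7 ± 1.73 CPM per kb, Srebf1 at 27.7 ± 1.21 and Elovl6 at 10.2 ± 0.374. Dgat1 was at 4.06 ± 0.206, Acaca at 3.42 ± 0.207 and Dgat2 last at 0.286 ± 0.0812 CPM per kb. After 24 h Scd2 led, at 332 ± 47.4 CPM per kb at 1 µg and 277 ± 1.43 at 10 µg, and Lpl came next at 238 ± 26.7 and 134 ± 2.54. At 10 µg and 24 h Plin2 (93.5 ± 3.998) and Scd1 (80.9 ± 2.19) stood above Srebf1 (29.4 ± 2.07) and Fasn (26.1 ± 3.31), and the latter pair differed by about their spread. Merged exons count every annotated exon, used or not. Without the length correction Lpl was above Scd2 at 1 µg and 24 h (2494 ± 280 and 1815 ± 259 CPM). At 10 µg and 24 h Lpl was below Scd2 (1405 ± 26.6 and 1511 ± 7.80 CPM). The order of these genes at 1 µg and 24 h therefore depends on that correction.

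The genes whose level over the 5 groups was most like that of each member were looked for among 10086 genes with at least 5 CPM in their highest group. Likeness was the root mean square difference of log2 CPM, as group means centred over the 5 groups, so it rests on 5 points that share their libraries. For Fasn these were Cd14 (0.022) and Pif1 (0.0318), for Elovl6 Gins3 (0.0152) and Acsl5 (0.0168), and for Acaca Mapkapk2 (0.0155) and Cchcr1 (0.0176). Scd1 was most like Lpin1 (0.0445) and Pnrc1 (0.0542), and Scd2 like Tlr9 (0.051) and Tob1 (0.0695). Plin2 was most like Gnpda1 (0.0344) and Anxa4 (0.0364), Lpl like Megf9 (0.031), and Srebf1 like Ppa2 (0.0128) and Ik (0.0188). For Dgat1 these were Trim68 (0.0149) and Hyi (0.0182), and for Dgat2 Selenow (0.0356) and Tmem67 (0.0372). Of these genes Acsl5 and Lpin1 belong to the lipid pathways described next.

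Genes around the 10 were described through lists of the neighbouring pathways, with counts at 10 µg and 24 h to be read against 70.3% of all genes passing. The lists were also chosen with earlier results of these data known, so their counts are descriptive. Of 10 genes that supply acetyl-CoA and NADPH, 1 rose and 7 fell. Acss2, which makes acetyl-CoA from acetate, rose by 1.09 ± 0.06 (adjusted p = 1.63e-14). G6pdx and Pgd, the NADPH-making enzymes of the pentose phosphate pathway, changed by -1.27 ± 0.07 and -1.23 ± 0.08 (4.01e-12 and 2.61e-11), and malic enzyme Me1 by -0.82 ± 0.09 (1.49e-07). With upper quartile scaling 1 rose and 4 fell. Of 15 further genes of synthesis, elongation and desaturation 6 rose and 5 fell, with Fads2, the delta-6 desaturase gene, at -0.69 ± 0.10 (2.5e-05), the elongation-cycle dehydratase gene Hacd3 at -0.58 ± 0.05 (4.96e-10) and the elongase gene Elovl5 at 0.22 ± 0.04 (0.000117).

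Among 15 regulators of SREBP, LXR and ChREBP 9 rose and 2 fell at 10 µg and 24 h, 10 and 1 with upper quartile scaling. Insig2, which holds SREBP in the endoplasmic reticulum, rose by 0.71 ± 0.06 (adjusted p = 3.61e-11), and Fbxw7, which marks nuclear SREBP for destruction, by 0.50 ± 0.07 (1.4e-06). Nr1h2, the gene of LXR beta, rose by 0.32 ± 0.06 (5.43e-05). Of 16 sterol synthesis and uptake genes, targets of the related factor SREBP-2, 9 rose and 0 fell at 10 µg and 6 h, where 4.09% of all genes rose and 1.86% fell. Hmgcs1 rose by 0.25 ± 0.05, Fdft1 by 0.28 ± 0.06 and Sc5d by 0.28 ± 0.06 (adjusted p = 0.00335, 0.00411 and 0.00568), and these 3 passed in every alternative whereas the other 6 did not. The count of risen genes was 3 to 7 without single libraries. After 24 h at 10 µg 1 of the 16 rose and 9 fell, 3 and 8 with upper quartile scaling, including Idi1 at -1.07 ± 0.06 (adjusted p = 6.09e-14).

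On the storage side, 5 of 8 tested lipid droplet genes rose and 1 fell at 10 µg and 24 h, 6 and 0 with upper quartile scaling. Plin3, a coat protein related to Plin2, rose from 45.4 ± 2.69 to 80.4 ± 2.81 CPM (0.83 ± 0.06, adjusted p = 8.22e-12), and the lipase inhibitor gene Hilpda rose by 0.72 ± 0.12 (1.02e-05) and already by 0.60 ± 0.12 after 6 h at 10 µg (0.00275). Of the 16 listed droplet genes 8 had too few counts or no row under that symbol and were not tested. Of 14 genes of glycerolipid and sterol ester assembly 5 rose and 5 fell, 7 and 3 with upper quartile scaling. Soat2, which makes cholesteryl esters, rose from 4.53 ± 0.301 to 98.4 ± 2.62 CPM (4.44 ± 0.10, adjusted p = 1.16e-20), Lpin1, a phosphatidate phosphatase gene, rose by 1.41 ± 0.10 (5.37e-11) and the acyltransferase gene Gpat3 by 2.77 ± 0.24 (1.86e-10). Gpat3 was low in untreated cells, at 0.688 ± 0.105 CPM, and reached 4.73 ± 0.59 CPM. Agpat5 changed by -0.88 ± 0.05 (3.17e-14).

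Of 10 genes listed under fatty acid activation 5 rose and 4 fell at 10 µg and 24 h. The list also holds acyl-CoA thioesterase (Acot) and acyl-CoA binding protein (Acbd3 and Dbi) genes, which do not activate fatty acids. The acyl-CoA synthetase genes Acsl3 and Acsl5 changed by 0.80 ± 0.05 (adjusted p = 2.52e-13) and -1.13 ± 0.07 (3.33e-13). The thioesterase gene Acot2 changed by 1.93 ± 0.15 (2.25e-08). Of 10 uptake and lipase-handling genes 6 rose and 3 fell. The fatty acid receptor gene Cd36 fell from 150.9 ± 14.98 to 53.5 ± 2.995 CPM (-1.497 ± 0.07, adjusted p = 1.42e-13), the Lpl inhibitor gene Angptl4 changed by -1.16 ± 0.15 (1.28e-07) and the fatty acid binding protein gene Fabp5 by 0.88 ± 0.07 (1.34e-09). Of 7 lipolysis genes 1 rose, the triglyceride lipase gene Pnpla2 (0.74 ± 0.07, adjusted p = 4.99e-10), and 1 fell, the lysosomal lipase gene Lipa (-0.29 ± 0.05, adjusted p = 4.4e-05). Of 20 oxidation genes 4 rose and 6 fell, 5 and 2 with upper quartile scaling, with Cpt1a, the gate to mitochondrial oxidation, at -0.57 ± 0.05 (1.07e-10) and Ppard, a nuclear receptor for fatty acids, at 0.81 ± 0.08 (3.61e-09).

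**Figure D4:**
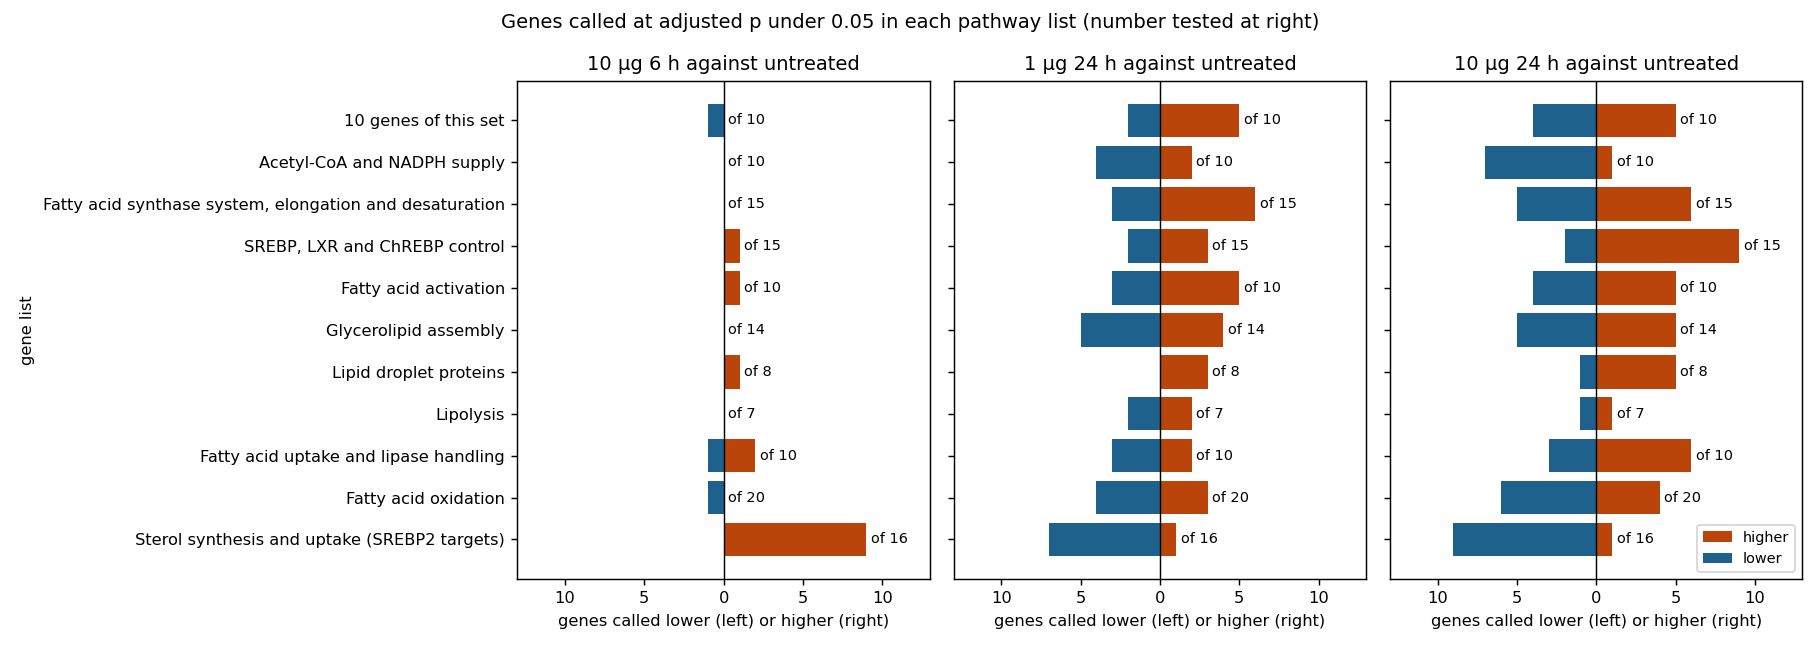
Number of genes in each pathway list that passed at an adjusted p under 0.05, lower to the left and higher to the right, with the number tested printed beside each bar, for 3 comparisons with untreated cells. After 10 µg for 6 h the sterol list holds 9 higher genes and the other lists 0 to 2, and at 10 µg and 24 h the sterol and the acetyl-CoA and NADPH lists hold mostly lower genes while the droplet list holds mostly higher ones.

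At 1 µg and 24 h 61.8% of all genes passed. Among the regulators of SREBP, LXR and ChREBP 3 rose and 2 fell (7 and 1 with upper quartile scaling), and of the uptake and lipase-handling genes 2 rose and 3 fell (3 and 1 with that scaling). Of the acetyl-CoA and NADPH genes 2 rose and 4 fell, of the droplet genes 3 rose and 0 fell, and of the sterol genes 1 rose and 7 fell. Soat2 rose by 3.84 ± 0.10 (adjusted p = 2.23e-19), Lpin1 by 1.498 ± 0.10 (5.14e-11), Acss2 by 0.95 ± 0.06 (7.81e-13) and Plin3 by 0.36 ± 0.06 (2.25e-05). Cd36 changed by -1.35 ± 0.07 (2.33e-12), G6pdx by -0.86 ± 0.07 (2.94e-09) and Acsl5 by -0.56 ± 0.07 (1.06e-07). Between the doses at 24 h, where 35.3% of all genes passed, 4 droplet genes were higher and 0 lower at 10 µg, among them Hilpda (0.95 ± 0.12, adjusted p = 1.14e-06) and Plin3 (0.47 ± 0.06, adjusted p = 9.85e-07). Angptl4 was lower at 10 µg (-0.95 ± 0.15, adjusted p = 1.48e-05), as was Acsl5 (-0.57 ± 0.07, adjusted p = 7.25e-07).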

How the data were processed

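RNA of 15 RAW264.7 libraries was made into stranded TruSeq mRNA libraries, per the labels' protocols. The authors deposited a table of raw counts for each symbol, whose columns were matched to libraries by the column name in each label. The build was GRCm39, per the submitters' processing notes. For the aligner, counter, annotation release and strand setting, nothing is given in the sources used here. The analysis used edgeR 4.0.16 under R 4.3.3. There filterByExpr at its defaults left 12401 genes holding 99.97% of counts, TMM scaling was used, and all 5 groups were fitted together (glmQLFit robust, glmQLFTest two-sided, 10 residual degrees of freedom). The prior count was 0.125. The SE is the log2 fold change over the square root of F. The 9 comparisons were each treated group with untreated cells, dose at each time, time at each dose, and dose by time.

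The 10 genes, the pathway lists and the markers were chosen with earlier results of these data known. Named list genes are at most the 4 called with the smallest p in a comparison. Alternatives were DESeq2 1.42.0, limma-voom (limma 3.58.1), RLE and upper quartile scaling, no filter, a replicate block, fitting only the groups compared, and leaving out each library. Promoters are RefSeq's. Coordinates of GRCm38 were used for sequence and length only. Some genes that these rules name are not reported here.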

Additional observations from a re-analysis of the deposited data

Results flagged for a closer look

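The dose effect of LCCL (10 µg against 1 µg) differed between 24 h and 6 h by the interaction test of edgeR's quasi-likelihood fit for 6 of the 10 genes, each of which is listed for a closer look for that reason. On the log2 scale the effect at 24 h minus that at 6 h was -0.581 for Fasn, -0.566 for Elovl6, -0.56 for Lpl, -0.437 for Scd2 and -0.334 for Acaca. For Plin2 it was 0.553. With 3 libraries per group no single library was tested as an outlier.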

How the results depend on the processing

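Over the 9 comparisons 46 changes of the 10 genes passed, of which 41 kept their direction and their call in every alternative tried and 0 changed direction. At 10 µg and 6 h, fitting only the groups compared gave 1487 genes instead of 738 and 2 of the 10 instead of 1, and leaving out single libraries gave 390 to 469 genes and 1 to 2 of the 10. Between the doses at 6 h, fitting only those groups gave 1044 genes instead of 291 and 3 of the 10 instead of 1, and leaving out single libraries gave 111 to 163 genes and 0 to 1 of the 10. At 1 µg and 6 h, 1 gene passed without a filter on low counts, instead of 0. The other counts moved by less than 1.5 times. The causes were not tested.

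Some changes, all smaller than their SE and none of which had passed, changed sign when single libraries were left out. At 1 µg and 6 h against untreated cells the log2 values then ran from -0.0203 to 0.0674 for Acaca, -0.0288 to 0.0678 for Scd1, -0.0230 to 0.115 for Scd2, -0.0257 to 0.0290 for Srebf1, -0.0342 to 0.0151 for Elovl6, -0.356 to 0.0189 for Dgat2 and -0.0381 to 0.00061 for Lpl. At 10 µg and 6 h they ran from -0.0320 to 0.0748 for Srebf1, -0.0032 to 0.0525 for Elovl6 and -0.0637 to 0.339 for Dgat2, and between the doses at 6 h from -0.0409 to 0.0660 for Srebf1 and -0.0368 to 0.0407 for Dgat1. Lpl at 1 µg and 24 h ran from -0.0801 to 0.0812 against untreated cells and from -0.0585 to 0.103 against 6 h, and the dose by time value of Dgat2 from -0.0394 to 0.304. Lpl at 1 µg and 24 h against untreated cells was also -0.0030 with limma-voom and -0.0017 without a filter on low counts.

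Upper quartile scaling moved the median of all genes at 24 h against untreated cells by 0.0842 at 1 µg and 0.114 at 10 µg, and at 24 h against 6 h by 0.0856 and 0.121. With it the share of calls that were higher went from 49.8% to 61.1% and from 50.3% to 61.0% in the former comparisons, from 49.9% to 61.2% and from 49.2% to 61.1% in the latter, from 40.7% to 51.9% for dose by time and from 45.4% to 53.7% between the doses at 24 h. In addition to the calls named above, Srebf1 and Dgat2 passed between 24 h and 6 h at 10 µg with it (adjusted p = 0.0102 and 0.03, ranges over alternatives 0.0102 to 0.917 and 0.03 to 0.252).

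Groups share replicate numbers, and the labels do not say what a number marks. Deviations of same-numbered libraries correlated between -0.213 and 0.217 over the pairs of groups, over 0.1 for some pairs and not for all, so the numbers were not taken to pair the libraries. With a replicate block, Lpl at 1 µg and 24 h against untreated cells was -0.0011 instead of 0.0029, and the other 89 results of the 10 genes kept their direction and call. At 10 µg and 24 h the block gave 8630 genes instead of 8717. With 3 libraries per group and 19085148 to 22434642 counts each, changes of Dgat2, at 13 to 36 counts a library, are the least precise.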
